A study of Homo sapiens with 18 samples.

Results

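The HLA class II genes and their regulator CIITA were examined for binding of the leukaemia fusion protein AML1-ETO in Kasumi-1 cells, a human acute myeloid leukaemia line with the t(8;21) translocation. The 10 genes were CIITA, CD74, HLA-DRA, HLA-DRB1, HLA-DPA1, HLA-DPB1, HLA-DQA1, HLA-DQB1, HLA-DMA and HLA-DMB, out of 19970 protein-coding genes of RefSeq (GRCh38.p14) on chromosomes 1 to 22 and X. They were taken by name for their shared role, at a time when earlier results of these data were known. A peak was assigned to a gene if it overlapped the gene body, or the 10 kb on either side of it, by at least 1 bp. The data came from CUT&RUN, in which an antibody directs a nuclease to its target and the released DNA is sequenced. The cells carried Flag-tagged AML1-ETO, and an antibody against ETO and an antibody against Flag were used in separate libraries, beside mouse IgG. All cells were transduced and sorted as GFP-positive after 3 days, either as control or as miR-130a knockdown (KD), with 3 libraries for each of the 6 combinations of condition and antibody. What the control vector carried is not given in the sources used here, and all libraries came from a single engineered cell line.

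The values were positions of peaks. The authors deposited 1 list each for control anti-ETO, control anti-Flag, knockdown anti-ETO and knockdown anti-Flag, here termed the 4 single-antibody lists, with 14264, 23162, 22594 and 25961 peaks. Further lists held peaks of both antibodies that were shared by the conditions (8731), unique to control (3059) or unique to knockdown (4617). The lists held positions only, with neither peak heights nor values of single libraries. Depth and spread between libraries are therefore unknown, no test between conditions could be made, and a gene without a listed peak is a gene without a call, not one shown to be unbound.

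HLA class II molecules present peptides from engulfed material to CD4+ T cells. HLA-DR, HLA-DQ and HLA-DP are pairs of an alpha and a beta chain, encoded by neighbouring A and B genes. The invariant chain CD74 guides these pairs through the cell and blocks their groove, and HLA-DM, made from HLA-DMA and HLA-DMB, exchanges its remnant for peptide. Their promoters share the X and Y boxes, bound by RFX, CREB and NF-Y proteins, and CIITA is the coactivator that these proteins recruit and without which class II genes are hardly transcribed. Myeloid progenitors and monocytes express class II genes, and loss of the molecules from leukaemic blasts is a known route of immune escape.

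Peaks were listed at 3 of the 10 genes: CIITA, HLA-DMA and HLA-DMB. CD74, HLA-DRA, HLA-DRB1, HLA-DQA1, HLA-DQB1, HLA-DPA1 and HLA-DPB1 had 0 peaks in every one of the 7 lists. Among all protein-coding genes, 58.4% had a peak in at least 1 single-antibody list under the same rule. CIITA and HLA-DMA had a peak in each of the 4, which is 2 of 10 members, against 37.3% of all. The control anti-ETO list called 2 of the 10 genes, against 47.6% of all protein-coding genes. The control anti-Flag list called the same 2 genes, CIITA and HLA-DMA, against 50.2% of all. The knockdown anti-ETO list called 3 of 10, against 53.8%, and the knockdown anti-Flag list called 3 of 10, against 42.2%. In the lists of peaks of both antibodies, the shared list called 2 of 10 genes (35.1% of all), the control-unique list 1 (16.9%) and the knockdown-unique list 2 (18.4%).

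**Figure D1:**
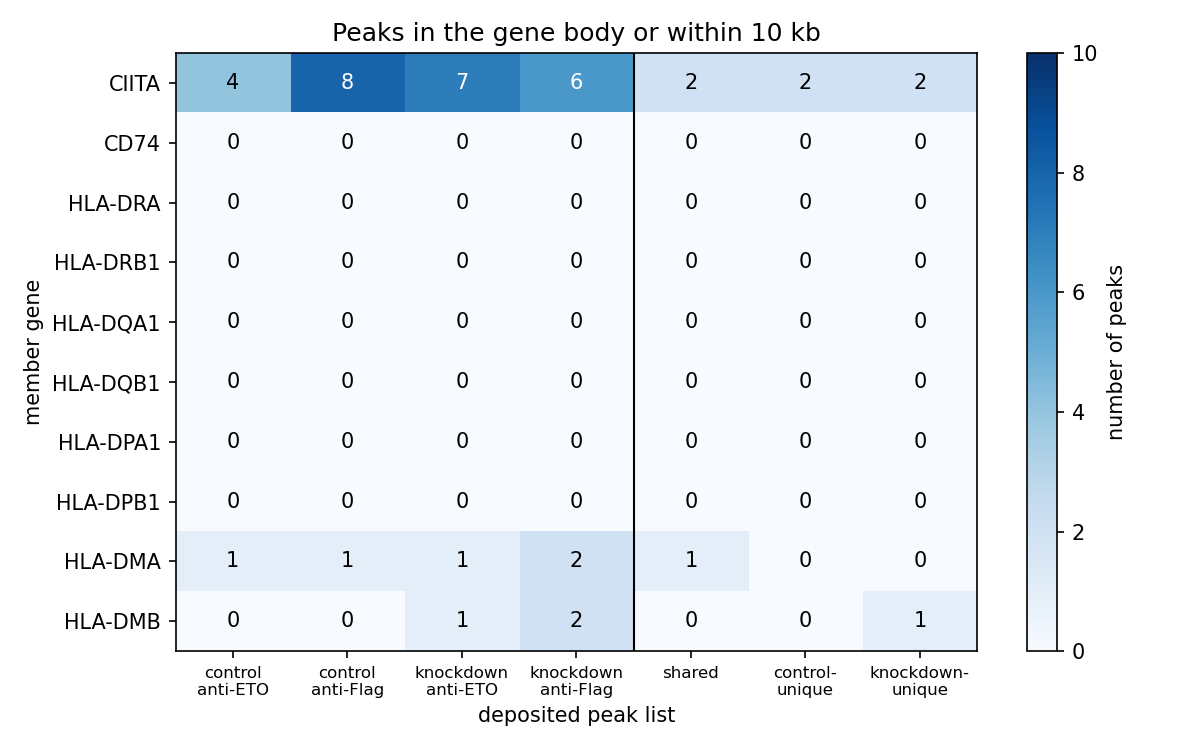
Number of peaks assigned to each of the 10 genes (rows) in each of 7 deposited lists (columns), shown as digits and by shade. CIITA has 4 to 8 peaks in the single-antibody lists, HLA-DMA and HLA-DMB have 0 to 2, and the other 7 genes have 0 throughout.

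The 9 members other than CIITA were short, at 4480 to 17867 bp against a median of 24190 bp for all protein-coding genes, and a short gene has a short window. Of the 8433 protein-coding genes of at most 17867 bp, 4698 (55.7%) had a peak in some single-antibody list, beside 2 of the 9 members. Most members are also neighbours on chromosome 6, so their counts are not independent of each other, and no test was made of the difference.

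HLA-DMA had a peak at its start in each of the 4 single-antibody lists and in the shared list. HLA-DMA (chromosome 6, 32948618 to 32953097) encodes the alpha chain of the peptide exchange factor and is read towards lower coordinates, from a start site at 32953097. The control anti-ETO peak spanned 32953239 to 32953591 (353 bp), and the control anti-Flag peak 32952953 to 32953566 (614 bp). The knockdown anti-ETO peak spanned 32952933 to 32953606 (674 bp), and the knockdown anti-Flag peak 32953232 to 32953606 (375 bp). All 4 overlapped and were deposited as 1 shared peak of 674 bp. The control anti-Flag and knockdown anti-ETO peaks reached across the start site, whereas the control anti-ETO and knockdown anti-Flag peaks stopped 142 and 135 bp short of the gene, on its upstream side. Of the 300-bp promoter window of RefSeq, from 250 bases before to 50 after the start, the control anti-Flag and knockdown anti-ETO peaks covered all 300 bp, the control anti-ETO peak 109 bp and the knockdown anti-Flag peak 116 bp. Such a window had a peak of all 4 lists in 18.1% of 22139 windows of protein-coding genes, and a peak of any list in 38.0%.

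The 250 bases before the start of HLA-DMA are shown because they lie under this peak, and those of HLA-DMB and HLA-DRB1 because they hold the same short matches and no peak. They are RefSeq sequences of GRCh38.p14, written 5′ to 3′ on the strand of the gene (minus for each of these). Capitals mark every CCAAT or its complement ATTGG, the letters at the core of a Y box, and CTGATGATG, a stretch that these promoters have in common. Not every match lies where a Y box would, and spacing and orientation differ between the genes.
HLA-DMA, chr6:32953098-32953347: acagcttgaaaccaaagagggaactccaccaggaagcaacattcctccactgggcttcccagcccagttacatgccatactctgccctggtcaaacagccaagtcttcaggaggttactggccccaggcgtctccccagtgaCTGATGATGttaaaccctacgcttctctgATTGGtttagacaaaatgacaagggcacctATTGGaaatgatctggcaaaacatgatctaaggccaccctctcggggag
HLA-DMB, chr6:32941029-32941278: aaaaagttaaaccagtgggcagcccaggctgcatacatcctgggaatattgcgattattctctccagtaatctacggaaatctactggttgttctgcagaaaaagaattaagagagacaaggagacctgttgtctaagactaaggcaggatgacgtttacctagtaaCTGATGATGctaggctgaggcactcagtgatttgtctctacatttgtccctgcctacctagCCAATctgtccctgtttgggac
HLA-DRB1, chr6:32589849-32590098: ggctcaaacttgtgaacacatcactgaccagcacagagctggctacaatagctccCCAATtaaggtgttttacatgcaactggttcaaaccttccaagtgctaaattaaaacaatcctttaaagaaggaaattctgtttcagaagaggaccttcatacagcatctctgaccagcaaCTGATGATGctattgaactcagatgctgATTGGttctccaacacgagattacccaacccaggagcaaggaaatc

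In HLA-DMA, CTGATGATG began 108 bases before the start and the ATTGG matches began 79 and 49 bases before it. These matches lay under the control anti-Flag and knockdown anti-ETO peaks and outside the control anti-ETO and knockdown anti-Flag peaks. In HLA-DMB the same stretch began 83 bases before the start and CCAAT 22 bases before it. In HLA-DRB1 it began 74 bases before the start, with ATTGG at 46 and CCAAT at 195.

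HLA-DMB differed between the conditions as listed. HLA-DMB (chromosome 6, 32934636 to 32941028) encodes the beta chain of the same factor and is also read towards lower coordinates. Neither control list had a peak within 10 kb, and the nearest control peaks, 11.9 kb (anti-Flag) and 12.2 kb (anti-ETO) away, were those at the start of HLA-DMA. With a window of 25 kb these peaks counted for HLA-DMB too, and the gene was then called in all 4 single-antibody lists. In knockdown, an anti-ETO peak (32933541 to 32933949, 409 bp) and an anti-Flag peak (32933528 to 32933955, 428 bp) lay past the end of the gene, 687 and 681 bp from it. The deposited knockdown-unique list held this site as a peak of 428 bp. The knockdown anti-Flag list also had a peak at 32930535 to 32930845, 3791 bp past the end of HLA-DMB, and a peak at 32959537 to 32960147, 6440 bp before the start of HLA-DMA. Neither had a call in another list, and no peak overlapped the promoter window of HLA-DMB.

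**Figure D2:**
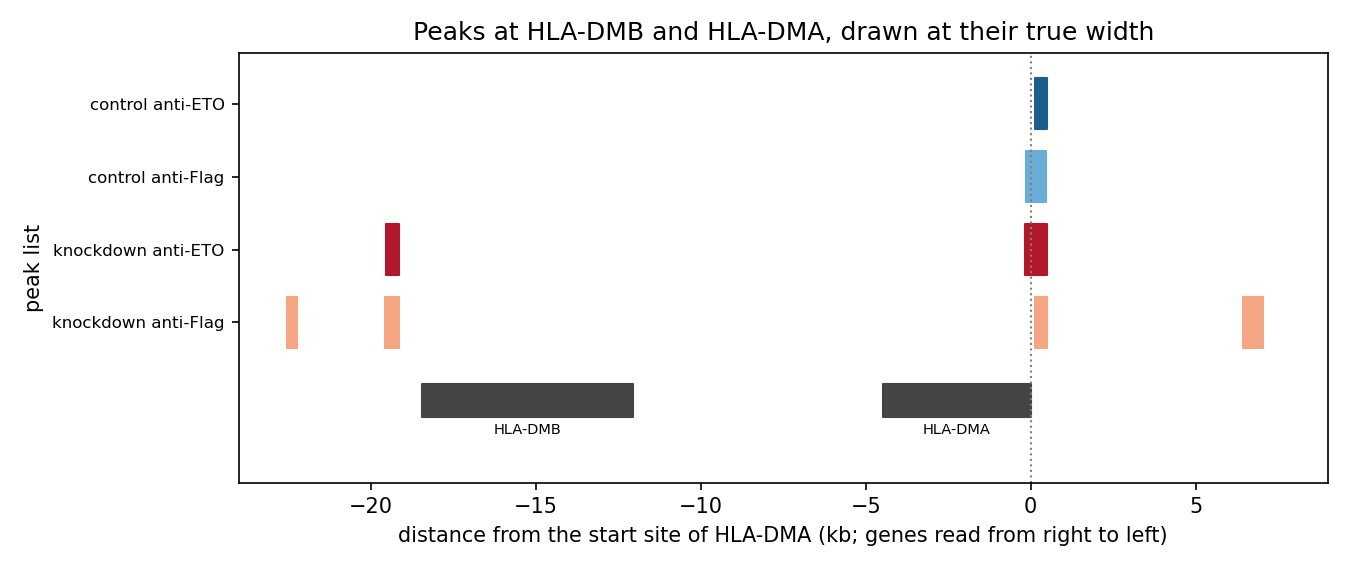
Peaks of the 4 single-antibody lists (rows, coloured bars at true width) by distance in kb from the start site of HLA-DMA (dotted line), with the gene bodies of HLA-DMB and HLA-DMA below. All 4 lists have a peak at the start of HLA-DMA, and only the knockdown lists have peaks past the end of HLA-DMB.

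CIITA had the most peaks of the 10 genes. CIITA (chromosome 16, 10866206 to 10943021, 76816 bp) is read towards higher coordinates and has several alternative promoters used in different cell types. No start site of CIITA was matched, so its start here is the lower-coordinate end of its span. How its peaks lie to these promoters was not examined. Its window held 4 control anti-ETO, 8 control anti-Flag, 7 knockdown anti-ETO and 6 knockdown anti-Flag peaks. In the control anti-Flag list 853 of 19970 protein-coding genes had at least 8 peaks, and in the knockdown anti-Flag list 2096 had at least 6. CIITA is longer than the median protein-coding gene (24190 bp), and these counts were not matched for length. Merging the 4 lists gave 9 regions in this window, in a first group of 4 regions from 1.99 to 21.3 kb after the start of the gene and a second group of 5 regions from 75.4 to 83.5 kb, with 54.1 kb between the groups. The second group held 2 of the 4 control anti-ETO and 4 of the 8 control anti-Flag peaks. In knockdown it held 5 of the 7 anti-ETO and all 6 anti-Flag peaks.

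In the first group, which lay over CIITA alone among protein-coding genes, the control anti-Flag list called 4 of 4 regions. The control anti-ETO list called 2, the knockdown anti-ETO list 2 and the knockdown anti-Flag list 0. In the whole series 62.1% of control anti-Flag peaks overlapped a knockdown anti-Flag peak, and no difference from this share was tested. The region nearest the start (10868194 to 10869010) was called by control anti-ETO over 399 bp, by control anti-Flag over 802 bp and by knockdown anti-ETO over 469 bp. The region at 10871298 to 10871573 was called by control anti-Flag over 236 bp and by knockdown anti-ETO over 276 bp. The region at 10876759 to 10877016 was called in control only, by anti-ETO over 258 bp and anti-Flag over 174 bp. The region at 10887171 to 10887467 was called by control anti-Flag alone. The authors' control-unique list accordingly held 10868194 to 10868995 and 10876759 to 10877016. At the former, anti-ETO still had a call after knockdown, and at the latter neither antibody did.

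The second group lay where CIITA ends and its neighbours begin. DEXI, whose start site is 76.3 kb after the start of CIITA, is read against CIITA and overlaps its end, and CLEC16A, a gene linked to autophagy, starts at 78.4 kb and is read away from it. The region at 10941882 to 10942969 was called in all 4 lists, over 876 bp (control anti-ETO), 844 bp in 2 peaks (control anti-Flag), 896 bp in 2 peaks (knockdown anti-ETO) and 310 bp (knockdown anti-Flag). Only the control anti-ETO peak covered the start of DEXI. The control anti-Flag and knockdown anti-ETO peaks lay on either side of it, and the knockdown anti-Flag peak lay on its upstream side. The region at 10944019 to 10945125 was also called in all 4 lists, over 876, 1105, 959 and 751 bp in the same order. The peaks of the first 3 lists covered the start of CLEC16A, and the 2 knockdown anti-Flag peaks lay on either side of it. The shared list held these sites as peaks of 1042 and 1107 bp, each across the start. Between them, 10943304 to 10943704 was called by control anti-Flag over 239 bp, knockdown anti-ETO over 316 bp and knockdown anti-Flag over 376 bp. The region at 10949134 to 10949728, inside CLEC16A, was called by both antibodies in knockdown and by neither in control. These last 2 regions made the knockdown-unique peaks of 387 and 595 bp, which lay 297 and 6113 bp past the end of CIITA. The region at 10941569 to 10941734, over both CIITA and DEXI, was called by knockdown anti-Flag alone.

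Both shared peaks counted for CIITA thus covered the start of another gene. Peaks over the body or promoter window of another protein-coding gene were therefore left out, a choice made after the peaks were seen. The shared list then called HLA-DMA and not CIITA. The 4 single-antibody lists and both unique lists called the same genes as before. For CIITA, however, the knockdown anti-Flag call then rested only on the peak at 10943329 to 10943704, 308 bp past the end of the gene. Its knockdown-unique call rested only on 10943318 to 10943704, 297 bp past that end.

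**Figure D3:**
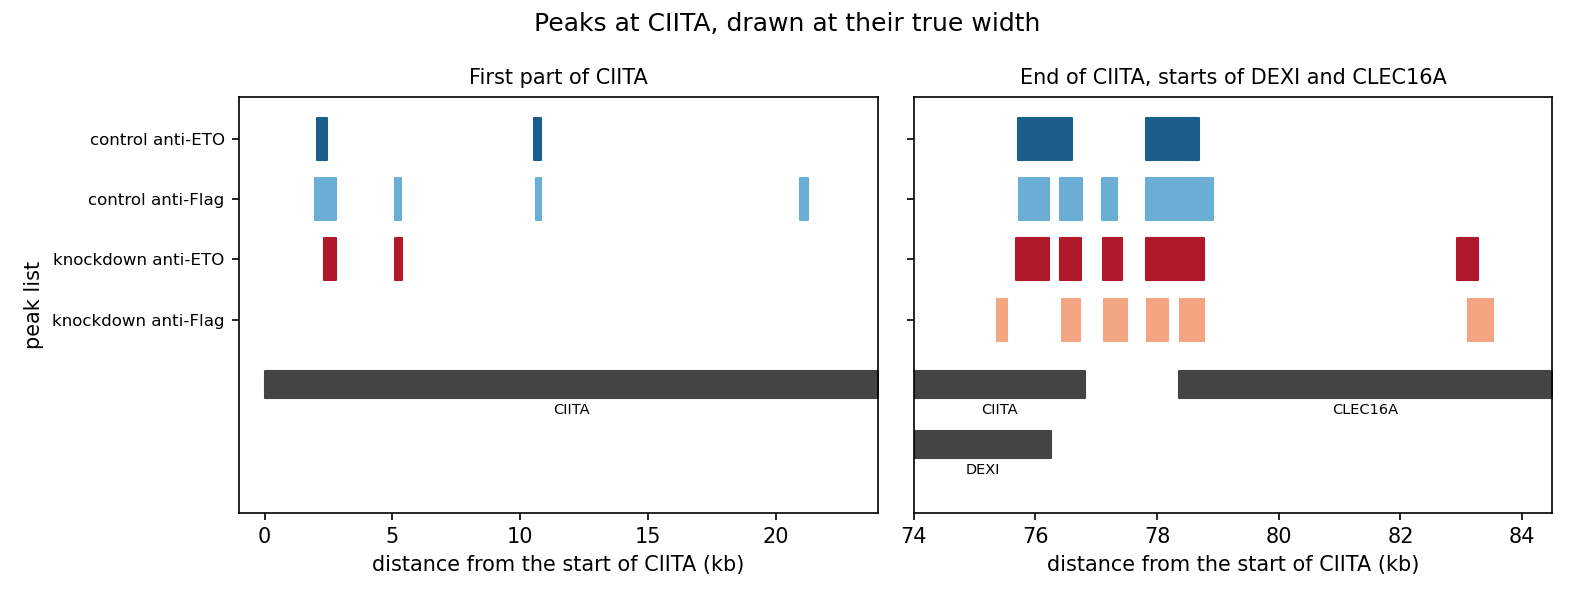
Peaks of the 4 single-antibody lists (rows, coloured bars at true width) by distance in kb from the start of CIITA, for the first part of the gene (left) and its end (right), with gene bodies below. Knockdown anti-Flag has no peak in the left panel and 6 in the right, where peaks of all lists lie at or beside the starts of DEXI and CLEC16A.

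The starts of DEXI and CLEC16A are shown for comparison with the class II promoters, as the 250 bases before each start (RefSeq, GRCh38.p14, strand of the gene, minus for DEXI and plus for CLEC16A). Capitals mark CCAAT and, in CLEC16A, TGCGGT, a form of the sequence bound by RUNX1, the partner that gives AML1-ETO its DNA-binding domain.
DEXI, chr16:10942469-10942718: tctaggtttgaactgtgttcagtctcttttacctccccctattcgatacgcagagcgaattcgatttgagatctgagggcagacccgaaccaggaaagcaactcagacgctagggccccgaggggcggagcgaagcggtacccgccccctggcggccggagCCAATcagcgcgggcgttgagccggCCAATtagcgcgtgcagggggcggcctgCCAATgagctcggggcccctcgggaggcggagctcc
CLEC16A, chr16:10944314-10944563: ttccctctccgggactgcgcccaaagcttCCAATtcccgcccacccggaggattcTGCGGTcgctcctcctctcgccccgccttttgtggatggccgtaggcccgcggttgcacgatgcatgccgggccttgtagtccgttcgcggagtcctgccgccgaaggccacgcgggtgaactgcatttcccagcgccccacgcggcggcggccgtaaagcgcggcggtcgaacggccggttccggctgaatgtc

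In CLEC16A the TGCGGT began 195 bases before the start and lay under the peaks of all 4 lists. In DEXI the CCAAT matches began 89, 64 and 36 bases before the start and lay under the control anti-ETO peak alone. The CLEC16A promoter window had a GC content of 69.3% and that of DEXI 66.7%, against a median of 68.7% for windows with a peak in all 4 lists and 58.3% for those with none.

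The HLA-DR and HLA-DQ chains, which present peptide, lay far from any listed peak. HLA-DRA (chromosome 6, 32439887 to 32445046), the alpha chain of HLA-DR, was 243 kb from the nearest control anti-ETO, control anti-Flag and knockdown anti-ETO peaks, and 200163 bp from the nearest knockdown anti-Flag peak. HLA-DRB1 (32578775 to 32589848), its main beta chain, was 249, 248 and 248 kb from them in the same order, and 196 kb from knockdown anti-Flag. HLA-DQA1 (32637406 to 32655272) was 183 kb from the nearest peak in each of these lists and 131 kb from knockdown anti-Flag. HLA-DQB1 (32659467 to 32666657) was 172, 171 and 172 kb away, and 119 kb from knockdown anti-Flag. The median protein-coding gene lay 14.0 kb from the nearest control anti-ETO peak, 9.62 kb from control anti-Flag, 3.71 kb from knockdown anti-ETO and 31.7 kb from knockdown anti-Flag, with upper quartiles of 131794, 133281, 109132 and 250010 bp. The HLA-DR and HLA-DQ genes were beyond the upper quartile in 3 lists and inside it for knockdown anti-Flag.

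These 4 genes shared a single stretch without peaks. In the 2 control lists together it ran from 32196487 to 32838075, which is 642 kb with 10 protein-coding genes, and 952 of 23613 gaps between neighbouring peaks were at least as long (median gap 6.57 kb). In the knockdown lists it ran from 32239725 to 32785887, 546 kb with 9 protein-coding genes, and 1077 of 31790 gaps were at least as long (median 3.51 kb). Both of these inner ends were peaks of the knockdown anti-Flag list. In the knockdown anti-ETO list alone the stretch was 642 kb, as in control. A count of gaps gives a long gap no more weight than a short one. Counted by gene, 85.1% of all protein-coding genes lay nearer than HLA-DRA to a peak of any of the 4 lists. For HLA-DRB1, HLA-DQA1 and HLA-DQB1 this share was 84.9%, 80.4% and 79.5%.

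HLA-DPA1 (33064569 to 33080748) and HLA-DPB1 (33075990 to 33089696), the overlapping genes of HLA-DP, lay in a second stretch without peaks of 212 kb in control and 135 kb in knockdown. HLA-DPA1 was 90.2 kb (control anti-ETO), 79.4 kb (control anti-Flag), 79.4 kb (knockdown anti-ETO) and 39.0 kb (knockdown anti-Flag) from the nearest peak. For HLA-DPB1 the distances were 102, 90.8, 72.0 and 30.1 kb. For knockdown anti-Flag these distances were close to that of the median gene. Knockdown anti-Flag, the longest list, came nearest to every HLA-DR, HLA-DQ and HLA-DP member.

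CD74 (chromosome 5, 150401639 to 150412910) lay in a stretch of 367 kb without control peaks and 366 kb without knockdown peaks. Its nearest peaks were 36.7 kb (control anti-ETO), 36.6 kb (knockdown anti-ETO) and 36.9 kb (knockdown anti-Flag) away. The nearest control anti-Flag peak was 243 kb away, so that on that side both antibodies had a near call in knockdown and only anti-ETO in control.

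**Figure D4:**
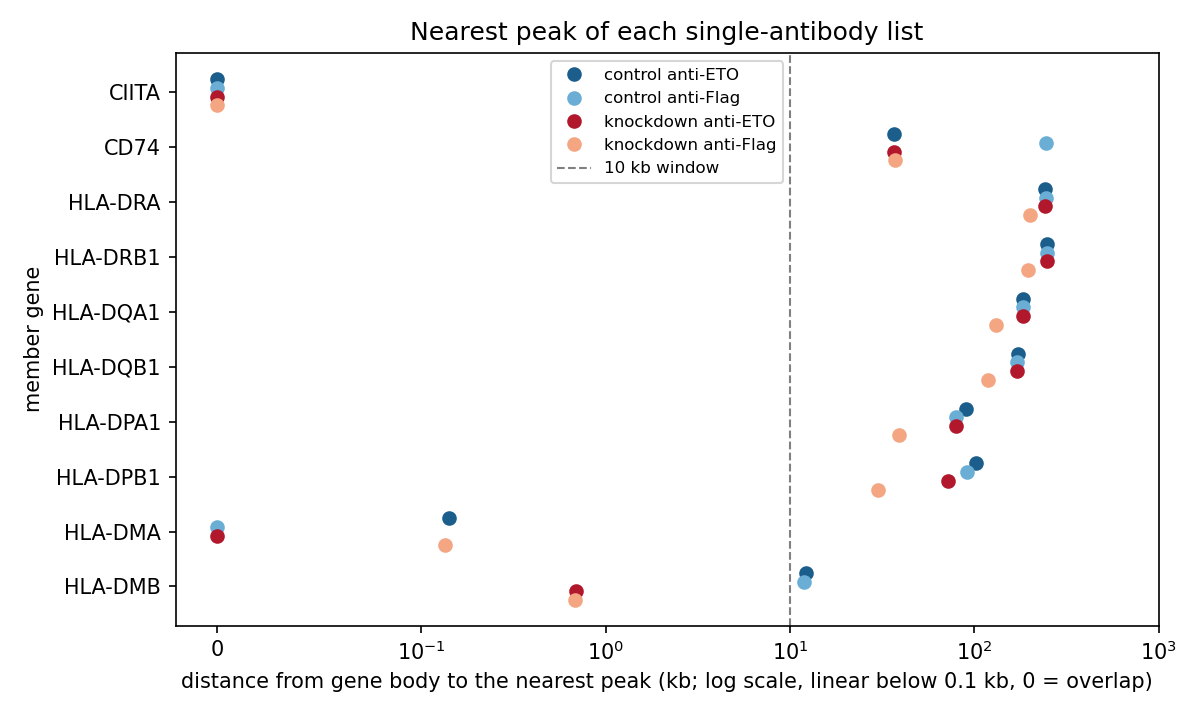
Distance in kb (log scale, linear below 0.1 kb) from each gene body to the nearest peak of each single-antibody list (coloured points), with the 10 kb window as a dashed line. CIITA and HLA-DMA lie at or near 0 in every list, HLA-DMB crosses the window between control and knockdown, and the HLA-DR and HLA-DQ genes lie at 119 to 249 kb.

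The class II genes lie among others that did have peaks. From HLA-DRA to HLA-DPB1 (650.0 kb, 18 protein-coding genes) the merged lists held 21 regions. Of these, 8 were in all 4 lists and 8 were called by knockdown anti-Flag alone. Among all 35622 merged regions of the series these shares were 24.8% and 22.3%, and no difference was tested. Of the 21 regions, 8 overlapped TAP2, PSMB8, TAP1, PSMB9 or BRD2. TAP1 and TAP2 form the peptide pump of the class I pathway, PSMB8 and PSMB9 are subunits of the immunoproteasome, and BRD2 is a bromodomain protein that reads acetylated chromatin. A region of 1956 bp (32852984 to 32854939) overlapped both TAP1 and PSMB9, and a region of 4141 bp (32966653 to 32970793) lay at BRD2, both called in all 4 lists. HLA-DMA was the only class II gene whose body overlapped a region, and 12 of the 21 regions lay in no protein-coding gene. The shares of all regions of the series inside and outside genes were not computed, so these counts cannot be called high or low. The density was 32.3 regions per Mb here and 97.0 per Mb in the next 1 Mb past HLA-DPB1. That neighbour was the only stretch compared. The density over the chromosome or the series was not computed, so these values do not show whether the class II stretch is poor in peaks.

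**Figure D5:**
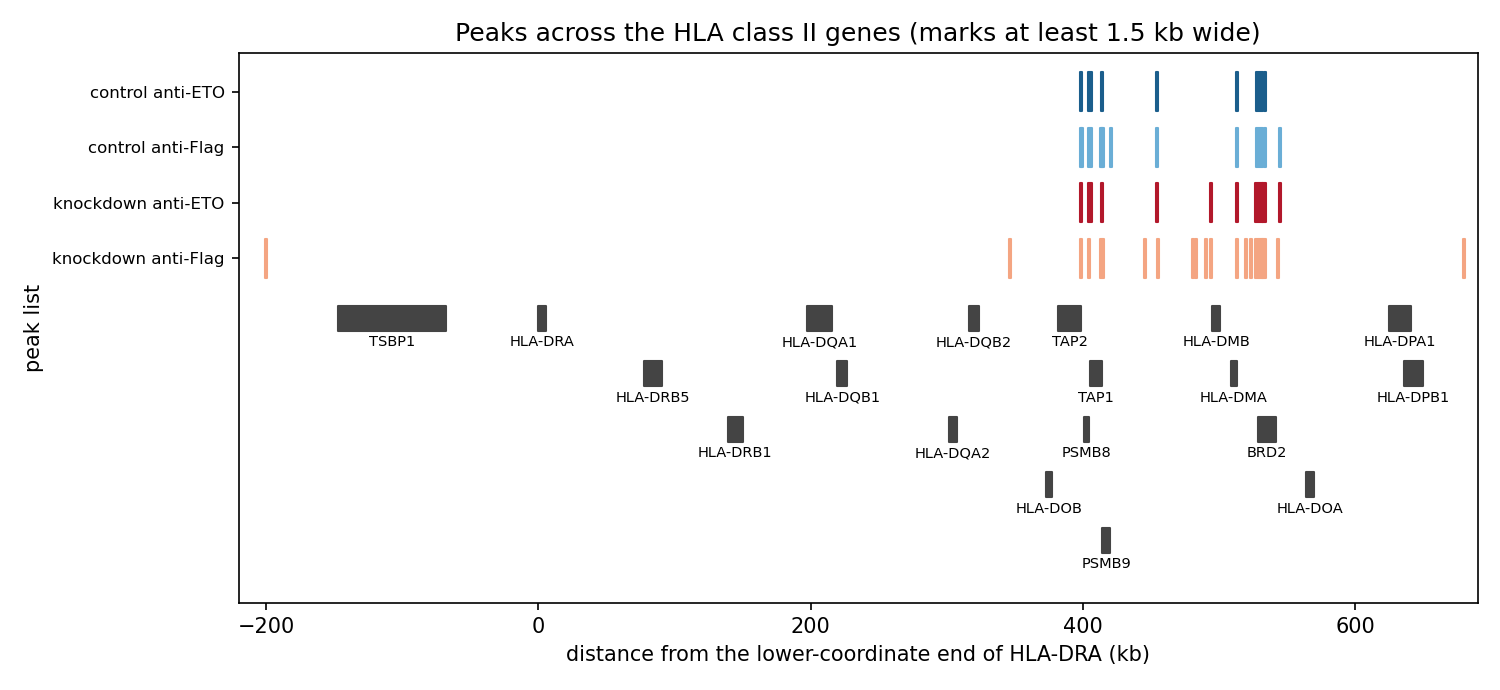
Peaks of the 4 single-antibody lists (rows, bars drawn at least 1.5 kb wide) by distance in kb from the lower-coordinate end of HLA-DRA, with protein-coding genes below. No peak lies over the HLA-DR, HLA-DQ or HLA-DP genes, and peaks of all lists lie at TAP2 to PSMB9, at HLA-DMA and at BRD2.

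Over all members the merged lists gave 13 regions, out of 35622 in the series. Of these 13, 3 were in all 4 lists, 2 in 3 lists, 4 in 2 lists and 4 in 1 list, where 24.8%, 14.8%, 16.2% and 44.3% of all regions fell. In control, 5 of 5 anti-ETO peaks at the members overlapped an anti-Flag peak, beside 89.6% of that whole list. In knockdown 6 of 9 did, beside 63.2%. Of the 9 control anti-Flag peaks at the members, 4 overlapped a knockdown anti-Flag peak, beside 62.1% of the list, and of the 5 control anti-ETO peaks 4 overlapped a knockdown anti-ETO peak, beside 91.0%. The members had 5 to 10 peaks a list, and no test was made of these shares.

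Promoter windows of RefSeq were matched for 8 of the 10 members, in 9 windows, and HLA-DRA and CIITA were not matched. Only the window of HLA-DMA had a peak. On either strand, CCAAT was found in 7 of the 9 windows, all but those of HLA-DPA1, and in 34.6% of all 22139 windows. CTGATGATG, searched for after the sequences had been read, was found in 3 of 9, those of HLA-DRB1, HLA-DMA and HLA-DMB, and in 0.23% of all windows. The RUNX sequences TGTGGT and TGCGGT were found in 0 of 9. They were found, either form and on either strand, in 19.0% of all windows, in 24.6% of windows with a peak in all 4 lists and in 17.5% of those with none. By form, TGCGGT was in 15.2% of windows with a peak in all 4 lists and 6.02% of those with none. For TGTGGT the shares were close, at 11.0% and 12.1%. Neither difference was tested. A match to these letters is a description and not a binding site. TGCGGT holds a CpG (a C followed by a G) and TGTGGT does not. The median CpG count was 30 in windows with a peak in all 4 lists and 12 in those with none. Whether this bears on the TGCGGT shares was not tested. GC content ran from 42.3 to 66.7% in the members' windows and was 52.3% for HLA-DMA. The lower quartile for windows with a peak in all 4 lists was 62.7%. Among the members' windows only that of HLA-DPA1 with 66.7% lay above this quartile, and the next highest was that of CD74. The window of CD74 had 54.3% GC and a CCAAT 53 bases before the start.

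Other genes of the class II pathway were taken from a list of 28, in groups of 2 to 7 by role, and no difference between groups was tested. Of the 28 genes, 15 had a control anti-ETO peak, 17 a control anti-Flag, 18 a knockdown anti-ETO and 15 a knockdown anti-Flag peak, which is 53.6%, 60.7%, 64.3% and 53.6% beside 47.6%, 50.2%, 53.8% and 42.2% of all protein-coding genes. The 5 further class II genes HLA-DRB5, HLA-DQA2, HLA-DQB2, HLA-DOA and HLA-DOB had 0 peaks. All 7 genes of the complex on the X and Y boxes had a peak in some single-antibody list: RFX5, RFXAP, RFXANK, NFYA, NFYB, NFYC and CREB1, and 6 of them had one in each single-antibody list. Of all protein-coding genes 58.4% had a peak in some single-antibody list and 37.3% in each. The exception was RFXAP, with 1 control anti-ETO, 2 control anti-Flag, 2 knockdown anti-ETO and 0 knockdown anti-Flag peaks. Both histone acetyltransferase genes that CIITA works with were called, EP300 in all 4 lists and CREBBP by control anti-Flag (1 peak) and knockdown anti-ETO (3 peaks).

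Of 7 transcription factors that act on CIITA, 6 had a peak in every single-antibody list, beside 37.3% of all protein-coding genes. They included IRF1, which carries the interferon signal to CIITA, USF1, IRF8, SPI1 and PRDM1, which represses CIITA in plasma cells. IRF8 had 5 control anti-ETO, 5 control anti-Flag, 3 knockdown anti-ETO and 3 knockdown anti-Flag peaks, and 2 of its peaks were in the control-unique list. SPI1 had 3, 4, 5 and 6 peaks in the same order. IRF4 had 0. Among 5 genes of antigen processing, 4 had a peak in some single-antibody list, beside 58.4% of all protein-coding genes. None had a peak in all 4 lists, beside 37.3% of all. IFI30, the lysosomal thiol reductase, had 1 control anti-Flag, 2 knockdown anti-ETO and 2 knockdown anti-Flag peaks and 1 knockdown-unique peak. The protease genes CTSS and LGMN had 1 knockdown anti-Flag and 2 knockdown anti-ETO peaks respectively, SPPL2A had 1 peak in every single-antibody list but knockdown anti-Flag, and CTSL had 0. MARCHF1 and MARCHF8, ligases that remove class II molecules from the surface, had 0.

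Among 13 class I counterparts, 10 had a peak in some single-antibody list, beside 58.4% of all protein-coding genes, and no difference from the class II genes was tested. TAP1 had 4 control anti-ETO, 8 control anti-Flag, 4 knockdown anti-ETO and 4 knockdown anti-Flag peaks. NLRC5, the class I relative of CIITA, had 2, 3, 2 and 4 peaks in the same order. HLA-F, HLA-G and B2M had 0. Windows of TAP1, TAP2, PSMB8 and PSMB9 overlap, so that a peak can count for several of these genes.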

How the data were processed

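CUT&RUN libraries of 6 groups of 3 (control or miR-130a knockdown with anti-ETO, anti-Flag or mouse IgG) were grouped by title. The authors deposited 9 interval lists with chromosome, start and end and no score or header. Per the submitters' processing notes, fastp 0.19.5, Bowtie2 2.3.5, MACS2 2.2.5 and HOMER 4.8 were used and hg38 is named as a build. Roles, thresholds, use of IgG and pooling of libraries are not given in the sources used here. How read mapping, the calling threshold and depth shaped the lists was not tested, also not for the HLA genes. Each list was used as 1 list with no replicates, so nothing was tested.

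Positions count from 1. Gene spans and promoter windows came from RefSeq tables of GRCh38.p14, the same assembly as hg38. A few genes of alternate contigs stayed among all protein-coding genes, with contig coordinates under the main chromosome. Exon positions were not used. Peaks were assigned by an overlap of at least 1 bp with the gene body or 10 kb on either side, in Python 3.11.15 with numpy 2.4.6 and pandas 2.3.3. Distances run between the nearest ends. The overlap function was tested on simulated intervals, and bedtools 2.31.1 gave the same gene counts for all 7 lists. Gaps are stretches between neighbouring peaks of a chromosome. The members and gene lists were chosen with earlier results of these data known. Named genes are the 10 members, the pathway and class I lists, and genes that overlap or are nearest to a member's peak. BRD2 was named after its peaks were seen. Some genes of these lists are not reported here.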

Additional observations from a re-analysis of the deposited data

How the results depend on the processing

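No paired analysis was possible because each list names no replicate, which also means that no library could be left out. With the gene body alone, the number of members with a peak was 1 in the control anti-ETO list, 1 in knockdown anti-Flag and 0 in the knockdown-unique list, with 3, 2 and 0 distinct peaks, and the knockdown anti-ETO list had 5 distinct peaks. With a flank of 50 kb, 4 members had a peak in control anti-ETO, 6 in knockdown anti-Flag and 4 in the knockdown-unique list. That flank gave 11 distinct peaks in control anti-ETO, 16 in control anti-Flag, 18 in knockdown anti-ETO, 23 in knockdown anti-Flag, 7 in the shared and 5 in the knockdown-unique list. With the wider 50% of each list, 1 member was left in the control anti-ETO, shared and knockdown-unique lists, which was CIITA each time. Leaving out peaks over another gene, an alternative added after the data were seen, left 1 member and 1 peak in the shared list and 3, 5 and 5 peaks in control anti-ETO, knockdown anti-ETO and knockdown anti-Flag. The other alternatives were run on the number of members with a peak (flanks of 1 and 25 kb, peak centres, the nearest member only, single-antibody lists of 14264 peaks) or of regions in all 4 lists (gaps of 500 bp joined), and these numbers stayed within 1.5 times of the reported ones. At 25 kb HLA-DMB was also called in both control lists and the shared list, so that the 4 single-antibody lists no longer differed in calling it. HLA-DRA, HLA-DRB1, HLA-DQA1 and HLA-DQB1 had no peak under any alternative run. The lists carry no depth, so what it limits is unknown.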
